A study of Mus musculus with 2 samples.

Results

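In the retina of LHX4::GFP mice at E14.5, 344 of 4444 kept GFP- cells had *Atoh7* transcripts with none of *Olig2*, *Pou4f2* or *Tfap2b* detected. Their share was 7.74% (95% exact interval 6.97 to 8.57). They are called the *Atoh7* members here. The cells were selected on measured values: at least 2 *Atoh7* unique molecular identifiers (UMIs, 1 per captured transcript), 0 UMIs of *Olig2*, *Pou4f2* and *Tfap2b*, and at most 1 UMI over *Sncg*, *Nefl* and *Rbpms*, genes of ganglion cells. The levels of these genes in the members are therefore no finding, and every comparison below describes cells that were chosen by their own transcripts. Of the 4445 GFP- barcodes, 1 was left out for a mitochondrial fraction of 0.25 or more, and no upper limit was set on genes per cell.

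All cells came from embryos that carried a bacterial artificial chromosome reporter, strain Tg(Lhx4::EGFP)KN199Gsat/Mmucd, in which *Lhx4* sequences drive GFP in early cone photoreceptors. Retinas of 2 litters were pooled into a single suspension, which was sorted into GFP+ and GFP- cells, and 1 droplet library was made from each gate, with 8173 cells over both. The GFP- gate is defined by the lack of reporter signal only, so that cells before reporter onset can be in it. As there was 1 library per gate, no replicate stands behind any value, no test was made, and the intervals given are 95% exact intervals that cover counting error only.

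*Atoh7* is a proneural basic helix-loop-helix transcription factor that retinal progenitors switch on at or near their last division, and ganglion cells are not made without it. Cells that have it can also become cones, horizontal cells or amacrine cells. Proneural factors raise the Notch ligand Delta on the cell surface, and Delta switches on *Hes* genes in the neighbours, which holds those cells back from differentiation. *Olig2* marks progenitors near a terminal division that gives mostly photoreceptors and horizontal cells, *Pou4f2* marks cells set on the ganglion cell fate, and *Tfap2b* marks amacrine and horizontal cells. The members thus hold the proneural factor without the markers of those next states.

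An *Atoh7* UMI was found in 1267 GFP- cells, and 847 had at least 2. Among these 847 cells, 203 had an *Olig2* UMI, 260 a *Pou4f2* UMI, 38 a *Tfap2b* UMI and 161 more than 1 UMI of the ganglion cell genes, with overlaps, which left the 344 members. Of the members, 94 had 1 UMI of *Sncg*, *Nefl* or *Rbpms*. The members held 2 to 21 *Atoh7* UMIs with a median of 4. The threshold cut through a continuous range, since 68 members had exactly 2 *Atoh7* UMIs and 177 further cells met the rest of the rule with exactly 1. The members were shallower than the remaining GFP- cells, with medians of 7840.5 UMIs and 2597.5 genes per cell against 10088.5 UMIs and 3032.5 genes, and their summed depth was 3012304 UMIs against 43762657. Scrublet called 5 members and 50 of the 4100 other kept cells doublets, and 2 members had a barcode that also occurred in the GFP+ library, where 20 barcodes were shared in all.

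Cells just inside and just outside the threshold differed in the genes that the rule did not use. In the 68 members with exactly 2 *Atoh7* UMIs, *Gadd45a* stood at 1383 UMIs per 1000000 summed UMIs of the class (CPM, interval 1286 to 1485), and in the 177 cells with 1 UMI at 508 (474 to 544). The progenitor gene *Sfrp2* went the other way, at 255 CPM (214 to 301) with 2 UMIs and 1019 (971 to 1069) with 1. Median depth was 7309.5 UMIs in the former and 8807 in the latter. The cells with a single *Atoh7* UMI thus held far more progenitor transcript, and these values are given as a description only.

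Of the 4 markers proposed for these cells, *Atoh7* was used by the rule and the other 3 were each found above the remaining GFP- cells. *Gadd45a*, a stress and growth arrest gene used here as a mark of neurogenic cells, was found in nearly every member. It had at least 1 UMI in 337 of 344 members (98.0%, 95.9 to 99.2), with a median of 16 and at most 52 UMIs per member, against a median of 1 in the other cells. Its summed level was 1856 CPM in the members and 317 in the other cells, a ratio of 5.85 (5.67 to 6.04). *Neurog2*, a proneural factor that also acts upstream of *Atoh7*, was far more uneven. It was found in 165 members (48.0%, 42.6 to 53.4) with up to 61 UMIs in 1 cell, and the summed level was 578 CPM (551 to 606) against 167, a ratio of 3.45 (3.28 to 3.64). *Dll3*, a divergent Delta-family protein that acts inside the signalling cell, was found in 157 members (45.6%) with at most 11 UMIs, and stood at 128 CPM against 29.5, a ratio of 4.34 (3.86 to 4.87). The markers were proposed with earlier results of these data known, so that their levels do not test the label of neurogenic cells, and 179 members had no *Neurog2* UMI. Nor are they particular to the members. In the *Olig2* and *Pou4f2* cells described below, *Gadd45a* was found in 95.1% and 93.6%, *Neurog2* in 88.7% and 25.3%, and *Dll3* in 62.7% and 40.6%.

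In the ganglion class, whose median depth was 13456 UMIs, a *Neurog2* UMI was found in 21.5% of cells and a *Dll3* UMI in 13.8%. After every cell was thinned to 5500 UMIs, *Neurog2* was found in 44.1% of the 322 members that were deep enough and in 13.7% of ganglion class cells, and *Dll3* in 37.9% and 7.32%. Free RNA in droplets was not measured. The ganglion class was not barred from *Atoh7*, *Olig2* or *Pou4f2*, so that its shares can include neurogenic cells and are no clean estimate of background. In the progenitor class described below, with a median depth of 10250.5 UMIs, a *Dll3* UMI was found in 4.50% of cells, and *Neurog2* was barred by its definition.

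Across the genome, 12595 genes had at least 50 UMIs over the members and the other GFP- cells together. Of these, 375 (2.98%) stood at least 2-fold higher in the members and 1588 (12.6%) at least 2-fold lower, with a median log2 ratio of -0.04 over all of them. The other cells were a mixture, chiefly of a progenitor class (1044 cells chosen for progenitor transcript, with none of *Atoh7*, *Neurog2*, *Otx2* or *Crx* and none of the markers that the rule bars), a ganglion class (1039 cells with at least 2 UMIs of the ganglion cell genes and no *Tfap2b*), a further 992 cells that met no class rule, and 395 cells with a *Tfap2b* UMI. The comparison that follows is with that mixture, and levels by class are given where they differ.

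**Figure D1:**
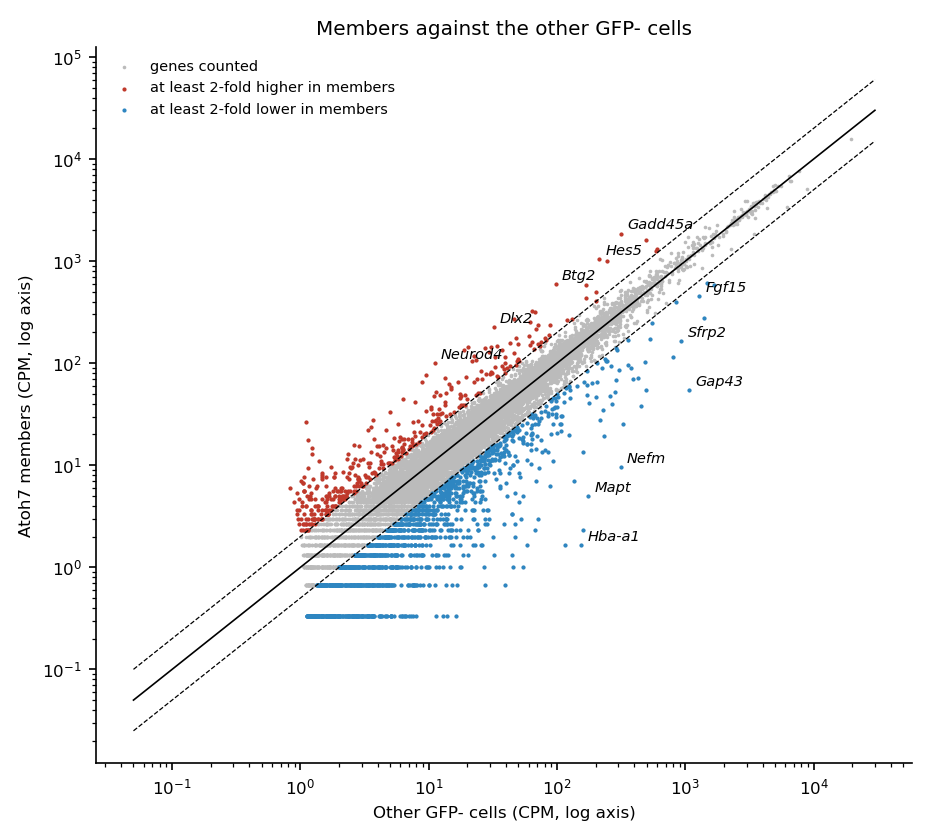
CPM of 12429 genes in the 344 *Atoh7* members (vertical, log axis) against the 4100 other kept GFP- cells (horizontal, log axis). The solid line marks equal levels and the dashed lines 2-fold differences, and the 166 counted genes with no UMI in the members are not drawn. Red genes such as *Gadd45a* and *Hes5* lie above the upper dashed line, and blue genes such as *Gap43* and *Mapt* lie below the lower one.

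The 15 genes with the highest ratio, among those with at least 50 CPM on either side, were led by *Neurod4*, a proneural-type factor of the amacrine and photoreceptor lineages, at 99.9 CPM in the members and 11.1 in the other cells (ratio 8.98, 7.75 to 10.4). *Crx*, the homeobox factor of photoreceptor precursors, followed at 76.4 against 9.46 CPM (8.07, 6.84 to 9.51). Both rested on a minority of members, since *Crx* had a UMI in 61 of them and *Neurod4* in 98. The sort had also taken the GFP+ cells, where both stood higher, out of the comparison. *Dlx2*, a homeobox factor of ganglion and amacrine precursors, stood at 227 against 32.1 CPM (7.06, 6.43 to 7.74), and *Insm2*, a zinc finger relative of *Insm1*, at 145 against 20.3 (7.13, 6.35 to 8.01). *Btg2*, an antiproliferative factor induced at neurogenic divisions, was found in 317 members and stood at 599 against 97.7 CPM (6.14, 5.80 to 6.48). The remaining genes of the 15 were *Rhbdl3*, *Pkib*, *Phlda1*, *Gadd45a*, *3110035E14Rik*, *Lfng*, *Btbd17*, *Pcdh17*, *Hes5* and *Penk*, with ratios between 4.85 and 7.32. Against the *Olig2* cells described below, the 15 genes went both ways. *Penk* was lower in the members, at 106 against 316 CPM (0.335), and *Lfng* higher, at 118 against 27.3. *Pcdh17* was found in 39.2% of members and 51.5% of *Olig2* cells.

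The 15 lowest genes were mostly those of differentiated neurons and of blood. *Gap43*, a growth cone protein, stood at 54.1 CPM in the members against 1062 (ratio 0.0509, 0.0434 to 0.0594). *Mapt*, the microtubule protein tau, stood at 4.98 against 175 CPM, and *Nefm*, a neurofilament subunit, at 9.63 against 313. The rule itself removed cells with ganglion cell transcripts, so that low levels of further ganglion cell genes were fixed by the choice of cells. The haemoglobin genes *Hba-a1*, *Hbb-bs* and *Hbb-bt* had 5, 7 and 3 UMIs in the members, and their high level in the other cells sat in the ganglion class, where *Hba-a1* stood at 472 CPM. With an upper limit of 3500 genes per cell the haemoglobin ratios turned over, to 1.90 for *Hba-a1*, 1.31 for *Hbb-bs* and 8.28 for *Hbb-bt*, so that the low ratios rest on cells with more genes than that.

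Of the 23 listed proneural factors and partners, *Atoh7* and *Olig2* were used by the rule. Among the 20 that were counted, 7 were at least 2-fold higher in the members than in the other GFP- cells, against 2.98% of all genes, and 2 were lower, with a median log2 ratio of 0.44. Besides *Neurog2* and *Neurod4*, these were *Neurod1*, a factor of photoreceptors and amacrine cells, at 318 against 67.0 CPM (4.74, 4.40 to 5.10), *Hes6*, a *Hes* relative that promotes neurogenesis, at 1621 against 493 CPM (3.29, 3.18 to 3.39), *Bhlhe22* (3.76), *Cbfa2t2* (2.17) and *Rcor2* (2.07). *Hes6*, like *Gadd45a*, was found in nearly every member, with a UMI in 339 of them and a median of 11. The lower pair was *Sox12* and *St18*.

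The Notch ligands were higher as a group than in the other GFP- cells, though not than in the *Olig2* cells described below. Of 5 counted ligands, 4 were at least 2-fold higher (*Dll3*, *Dll1*, *Dll4* and *Jag1*), against 2.98% of all genes, with a list median log2 ratio of 1.94. *Dll1*, the main Delta ligand of retinal progenitors, stood at 65.1 against 16.9 CPM (3.85, 3.27 to 4.51) and *Dll4* at 48.5 against 12.3 (3.95, 3.27 to 4.75). *Jag2* had no UMI in the members, which allows up to 3 counts over the class, and *Dlk1* had 3. On the receiving side, *Notch1* stood at 126 against 46.2 CPM (2.72, 2.43 to 3.04), *Rbpj*, the DNA-binding partner of Notch, at 161 against 63.4 (2.53, 2.30 to 2.79), and the glycosyltransferases *Lfng* and *Mfng*, which tune the response to ligand, at 118 against 22.4 (5.27, 4.65 to 5.95) and 218 against 68.6 (3.18, 2.92 to 3.46). These were 4 of the 14 receptors and modifiers, against 2.98% of all genes. *Adam10* and *Notch3* were lower, a share near the 12.6% of all genes.

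The Notch targets did not move together. *Hes5*, an effector of Notch, stood at 1048 CPM in the members (1012 to 1086 by counting) against 213 in the other cells (4.92, 4.72 to 5.12), and this was above the progenitor class as well, at 289 CPM. *Hes1*, the other main effector, stood at 178 CPM in the members, 601 in the progenitor class and 333 over all other cells (0.536, 0.490 to 0.584). *Hey1* (2.68) and *Heyl* (7.53) were also higher, while *Id2* (0.318) and *Id3* (0.211) were at least 2-fold lower. Of the 9 counted targets 3 were thus higher and 2 lower, beside 2.98% and 12.6% of all genes, with a list median of 0.09. A *Hes5* UMI was found in 71.8% of members and 30.2% of the deeper ganglion class cells, and in 71.4% and 19.4% after thinning.

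Promoter sequences are shown for a ligand, a pair of genes of the Notch pathway and the photoreceptor factor *Crx*. Each stood at least 2-fold apart both between the members and the other cells and within the members, as described below. So did others whose windows are not printed, such as *Neurog2*, *Dlx2*, *Insm2* and *Gal*, so that these 4 are examples only. They were read from RefSeq windows of build GRCm38.p6 that run from 250 bases before to 50 after the transcription start, 5′ to 3′ on the gene's strand, and capitals mark matches on either strand to CAGNTG (an E-box of the kind proneural factors bind), TGGGAA (the core that *Rbpj* binds) or TAATCC (the core that *Otx2* and *Crx* bind). The windows lie at chr7:28301736-28302035 on the minus strand (*Dll3*), chr4:154960673-154960972 on the plus strand (*Hes5*), chr5:140607091-140607390 on the plus strand (*Lfng*) and chr7:15879906-15880205 on the minus strand (*Crx*).
Dll3: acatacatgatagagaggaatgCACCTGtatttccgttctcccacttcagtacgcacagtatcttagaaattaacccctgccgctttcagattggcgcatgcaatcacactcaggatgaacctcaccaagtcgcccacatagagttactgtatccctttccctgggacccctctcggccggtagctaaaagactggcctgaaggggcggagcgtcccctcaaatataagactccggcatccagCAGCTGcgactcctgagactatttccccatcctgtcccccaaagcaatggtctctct
Hes5: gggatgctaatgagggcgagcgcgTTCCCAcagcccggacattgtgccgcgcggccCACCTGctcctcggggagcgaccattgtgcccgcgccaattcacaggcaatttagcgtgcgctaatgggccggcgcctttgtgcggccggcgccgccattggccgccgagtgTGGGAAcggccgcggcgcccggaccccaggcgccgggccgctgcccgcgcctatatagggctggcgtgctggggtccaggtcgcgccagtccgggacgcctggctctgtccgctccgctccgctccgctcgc
Lfng: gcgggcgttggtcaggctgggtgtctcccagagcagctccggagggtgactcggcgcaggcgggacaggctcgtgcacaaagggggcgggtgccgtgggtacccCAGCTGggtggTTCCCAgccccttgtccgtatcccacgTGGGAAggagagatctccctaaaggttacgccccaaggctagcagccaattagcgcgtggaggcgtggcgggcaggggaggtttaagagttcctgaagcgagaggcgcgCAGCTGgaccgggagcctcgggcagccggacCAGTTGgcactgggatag
Crx: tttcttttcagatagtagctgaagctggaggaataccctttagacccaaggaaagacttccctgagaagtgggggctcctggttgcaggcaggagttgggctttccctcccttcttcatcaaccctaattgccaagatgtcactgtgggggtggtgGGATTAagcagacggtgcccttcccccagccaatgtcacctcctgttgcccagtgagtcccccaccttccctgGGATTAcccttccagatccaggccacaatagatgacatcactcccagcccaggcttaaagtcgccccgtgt
The *Dll3* window holds 2 E-boxes, at 228 and 7 bases before the start. The *Hes5* window holds 1 E-box and 2 TGGGAA matches, the *Lfng* window 3 E-boxes and 2 TGGGAA matches, and the *Crx* window 2 TAATCC matches, at 94 and 21 bases before the start. Over all 32851 windows in the table, 51.4% hold a CAGNTG match, 25.6% a TGGGAA match and 7.06% a TAATCC match. Of the 15 highest genes, 11 have a window, of which 6 hold CAGNTG, 4 TGGGAA and 1, that of *Crx*, TAATCC. The windows of *Dlx2* and *Insm2* hold 1 CAGNTG match each and that of *Gal* 1 TGGGAA match. The windows of *Neurog2* and of *Gadd45a* (chr6:67037358-67037657, minus strand) hold none of the 3, which says only that these letters are not in those stretches.

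Genes of multipotent progenitors were mostly at or below the level of the other cells. Of 22 listed genes all were counted, 0 were at least 2-fold higher and 7 were lower (12.6% of all genes), with a median log2 ratio of -0.61. *Sfrp2*, a secreted Wnt modulator of multipotent progenitors, stood at 165 CPM in the members and 1688 in the progenitor class, and *Fgf15* at 458 and 2442. *Ccnd1*, the cyclin that drives progenitor division, stood at 865 CPM against 2169 in that class. *Pax6* and *Rax* remained within 2-fold of the mixture, with ratios of 0.835 and 1.24.

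Most photoreceptor genes that were counted stood above the other cells. Of 10 counted, 8 were at least 2-fold higher and 1 lower, with a median log2 ratio of 1.66, beside 2.98% and 12.6% of all genes. The sort took the GFP+ cells out of the comparison, so that a low photoreceptor level in the other cells was set in part by the sort. Besides *Otx2*, at 253 against 61.3 CPM (4.13, 3.81 to 4.48), and *Crx*, these included *Prdm1*, which holds cells to the photoreceptor fate, at 33.5 against 4.96 CPM (6.76, 5.29 to 8.60), and *Thrb*, the thyroid hormone receptor of cones, at 14.6 against 6.22 (2.35, 1.67 to 3.24). *Lhx4*, whose sequences drive the reporter, had 11 UMIs in the members. *Rxrg*, a retinoid receptor gene of cones, was the lower one, with 10 UMIs. Transcripts of phototransduction genes were few, and *Rcvrn*, *Arr3* and *Gnat2* had no UMI in the members. *Pdc* and *Gnb3* had 29 and 20 UMIs, at 3.97-fold and 2.40-fold the level of the other cells, and *Gngt2* had 18. *Nr2e3*, a nuclear receptor of rods, had none.

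Amacrine and horizontal cell genes went both ways, with 4 of 14 counted at least 2-fold higher and 5 lower, and a median of -0.54. Over all genes the shares were 2.98% and 12.6%. The higher ones were transcription factors of precursors: *Ptf1a*, at 115 against 39.2 CPM (2.92, 2.59 to 3.28), *Meis2*, at 84.0 against 25.5 (3.30, 2.86 to 3.78), *Onecut1*, at 49.5 against 17.6 (2.80, 2.34 to 3.35), and *Lhx9*, with 15 UMIs. *Tfap2a*, which acts beside *Tfap2b*, had 2 UMIs and the horizontal cell factor *Lhx1* had 1. The rule left out cells with *Tfap2b*, so that low levels of its companions follow from the choice of cells.

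Ganglion cell genes were, by the same choice, mostly low, with 16 of 21 counted lower, 3 higher and a median of -2.76. Over all genes 12.6% were lower and 2.98% higher. The 3 that were higher, *Dlx1*, *Dlx2* and *Eya2*, are factors of early precursors, with *Dlx1* at 143 against 30.5 CPM (4.70, 4.21 to 5.25) and *Eya2*, a phosphatase and co-activator, at 114 against 32.6 (3.50, 3.10 to 3.94).

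**Figure D2:**
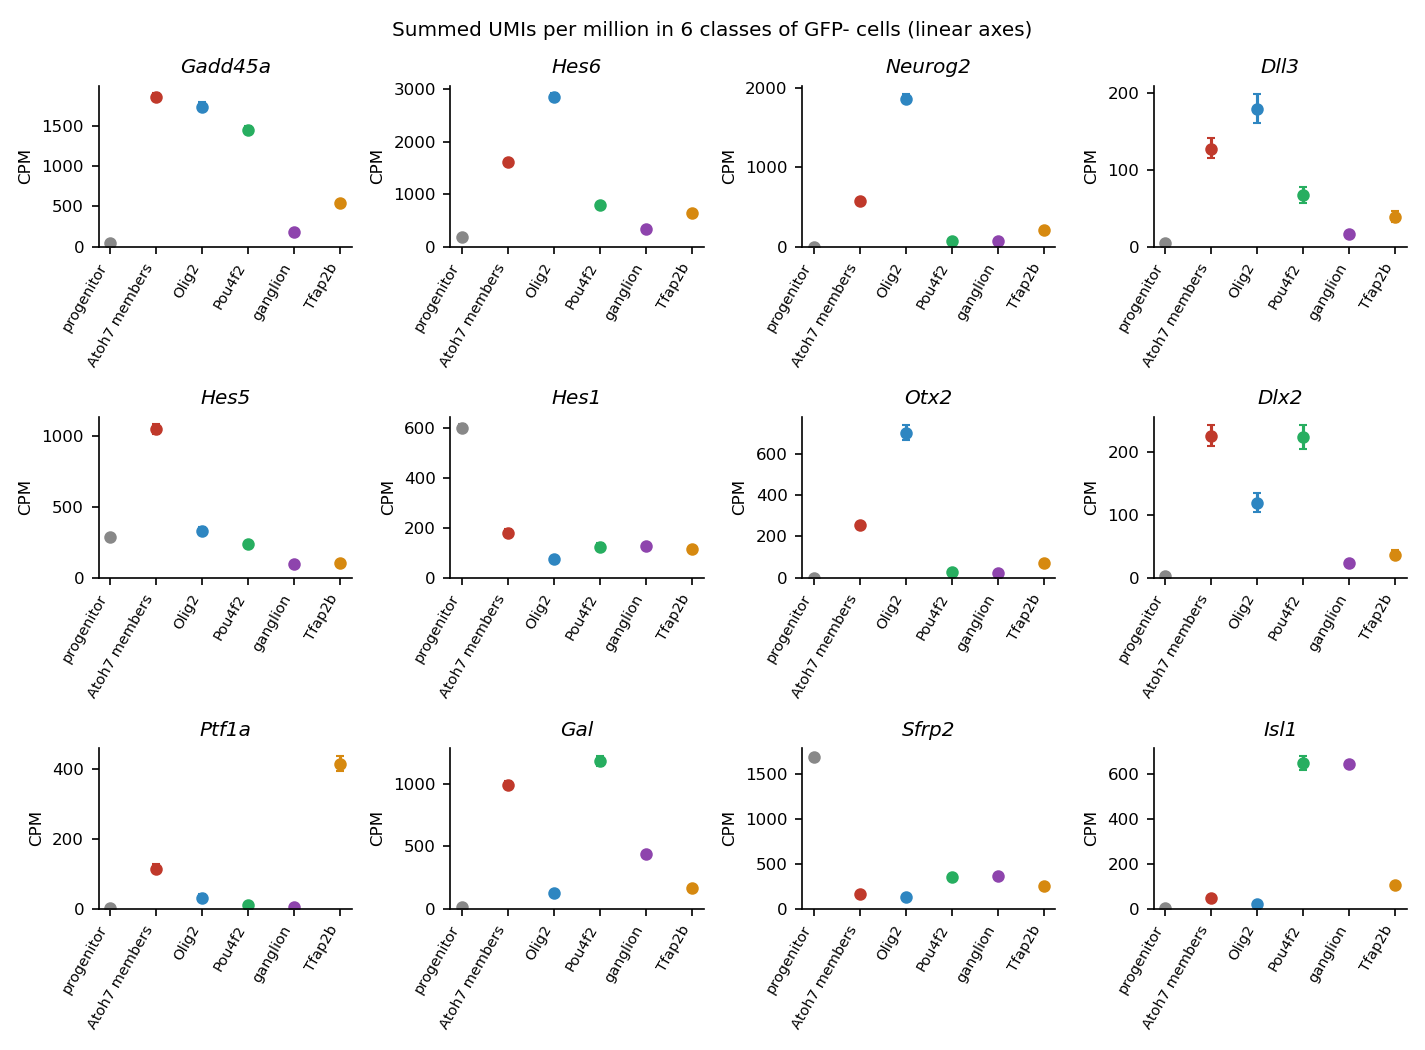
CPM (vertical, linear axes from 0) of 12 genes in 6 classes of GFP- cells, with exact Poisson 95% intervals that are often smaller than the points. *Gadd45a*, *Hes5* and *Dlx2* were high in the members at 1856, 1048 and 227 CPM, *Hes6*, *Neurog2* and *Otx2* peaked in the *Olig2* cells, and *Sfrp2* and *Hes1* in the progenitor class. *Neurog2* and *Otx2* are 0 in the progenitor class by its definition.

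A few of the genes linked to leaving the cell cycle stood apart. Of 21 counted, 4 were at least 2-fold higher (*Btg2*, *Gadd45a*, *Gadd45g* and *Cdkn1a*) and 1 (*Ccnd2*) was lower, with a list median of 0.10. The shares of all genes were 2.98% higher and 12.6% lower. The cyclin-dependent kinase inhibitors *Cdkn1b* and *Cdkn1c*, which hold neurons out of the cycle, were not higher, at 25.9 CPM (ratio 1.07) and 179 CPM (0.734).

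By phase calls the members held more G1 cells than the progenitor class and fewer than the ganglion class. By S and G2M scores, 151 members (43.9%, 38.6 to 49.3) were called G1, 56 (16.3%, 12.5 to 20.6) S and 137 (39.8%, 34.6 to 45.2) G2M. In the progenitor class 4.21% were called G1, and in the ganglion class, which should lack cycle transcripts, 73.9%, with 15.5% called G2M there. After thinning, the G1 share of the members was 40.7% and that of the progenitor class 3.83%. The summed level of the 54 G2M genes was 9333 CPM in the members, 9227 in the progenitor class and 4413 in the ganglion class, and that of the 43 S genes was 2813, 4147 and 1329 CPM. The members thus held G2M transcripts at the progenitor level and S transcripts below it. Of the members, 16 (4.65%) lay within 0.05 of the boundary between G1 and the other calls. Closeness to the boundary between S and G2M was not counted.

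**Figure D3:**
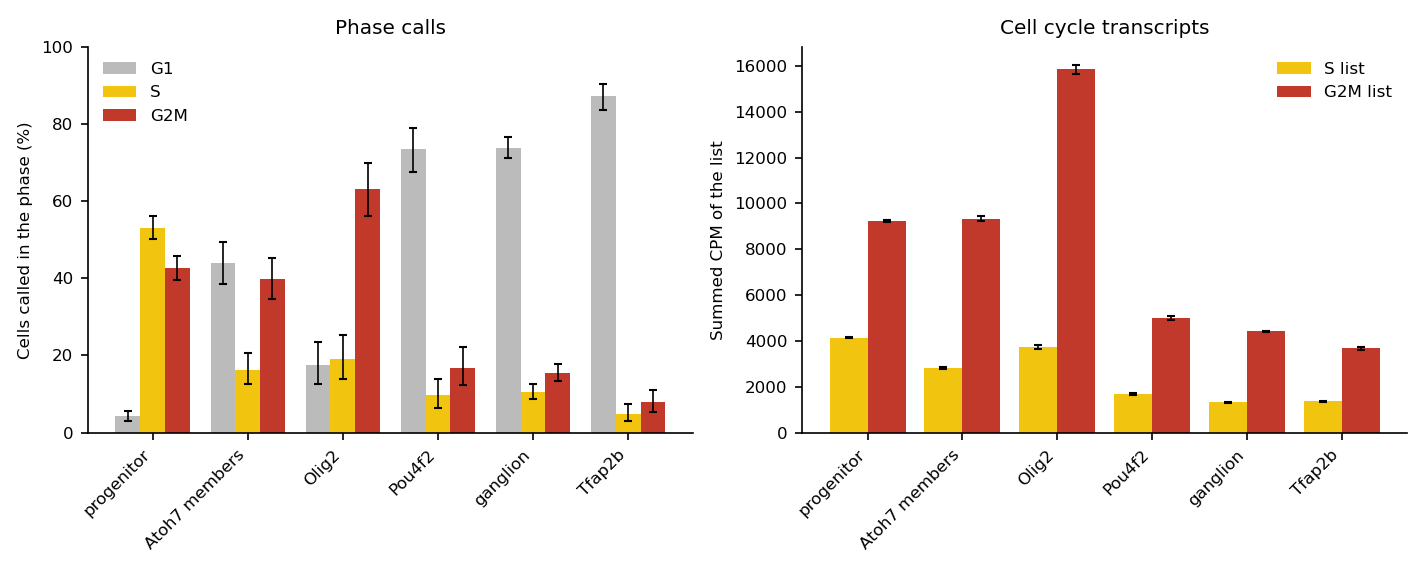
Share of cells called in each phase (left, percent, with exact Clopper-Pearson 95% intervals) and summed CPM of the S and G2M gene lists (right, with exact Poisson 95% intervals) in 6 classes of GFP- cells. The members had 43.9% of cells in G1 and 39.8% in G2M, between the progenitor class (4.21% in G1) and the ganglion class (73.9%), and the *Olig2* cells had the most G2M transcripts, 15848 CPM.

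The *Olig2* cells (204 cells with an *Olig2* UMI and no *Pou4f2*, *Tfap2b* or more than 1 ganglion cell UMI, any *Atoh7*) were close to the members. Of 7565 genes counted, 116 (1.53%) were at least 2-fold higher in the members and 124 (1.64%) lower. *Gadd45a* (1856 against 1742 CPM) and *Btg2* (599 against 662) were alike in level, and *Atoh7* itself stood at 602 CPM in the members, as the rule requires, and 585 in the *Olig2* cells. The cells differed in which Notch and proneural genes they held.

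On the members' side stood *Insm2*, at 145 against 16.8 CPM (ratio 8.63, 6.02 to 12.8), and *Gal*, the neuropeptide galanin, at 992 against 121 (8.17, 7.14 to 9.38). *Gal* was patchy, with a UMI in 113 members and up to 236 in 1 cell, and it was also found in 25.4% of all other GFP- cells. Neither gene was particular to the members. In the *Pou4f2* cells described below, with a median depth of 9718 UMIs, *Insm2* was found in 57.4% and *Gal* in 51.8%. The shares of members were 42.7% and 32.8%. The Notch targets *Hey1* (5.78, 3.88 to 8.95), *Nrarp* (3.49, 2.55 to 4.88) and *Hes5* (3.19) and the modifier *Lfng* (4.31, 3.22 to 5.89) were higher in the members. Of 9 counted targets, 5 were at least 2-fold higher in the members than in the *Olig2* cells and 0 lower, with a list median log2 ratio of 1.27 beside 0.02 over all genes. *Ptf1a*, the factor that commits cells to the amacrine and horizontal fates, was also higher, at 115 against 31.5 CPM (3.63, 2.75 to 4.86).

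On the *Olig2* side stood the ligand *Dll4*, at 48.5 CPM in the members against 165 (0.294, 0.240 to 0.359), and the proneural factor *Neurog2*, at 578 against 1868 (0.310, 0.292 to 0.328). The listed Notch ligands together summed to 247 CPM in the members and 452 in the *Olig2* cells. Of 3 counted ligands, 0 were at least 2-fold higher in the members and 1 lower, with a list median log2 ratio of -0.65. Over all genes 1.53% were higher and 1.64% lower. *Foxn4*, a factor of horizontal and amacrine competence, stood at 46.8 against 164 CPM, *Insm1* at 41.8 against 140, and *Otx2*, the photoreceptor and bipolar cell factor, at 253 against 704 (0.360, 0.329 to 0.394). The members held fewer cycle transcripts than the *Olig2* cells: 18 of 54 counted G2M genes were at least 2-fold lower and 0 higher, and the list's level was 9333 against 15848 CPM. The *Olig2* cells had 63.2% of cells called G2M against 39.8% of the members, and how far phase carries the other differences was not tested.

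The *Pou4f2* cells (249 cells with a *Pou4f2* UMI and no *Olig2*, *Tfap2b* or more than 1 ganglion cell UMI) differed more. Of 7927 genes counted, 325 (4.10%) were at least 2-fold higher in the members and 228 (2.88%) lower. Ganglion cell genes were already raised in the *Pou4f2* cells although cells with more than 1 UMI of *Sncg*, *Nefl* and *Rbpms* were left out of both. *Isl1*, the partner of *Pou4f2* in ganglion cell fate, stood at 47.5 CPM in the members against 648 (0.0733, 0.0613 to 0.0870), *Ebf1* at 25.2 against 171, and *Elavl4* at 39.8 against 346. Of 15 counted ganglion cell genes 12 were lower in the members, with a list median log2 ratio of -1.79. *Dlx1* and *Dlx2* were the exception, at 143 against 178 CPM and 227 against 224. *Eya2* (114 against 122 CPM) and *Gadd45a* (1856 against 1452) were also within 2-fold.

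In the other direction, the members held more transcript of photoreceptor and amacrine factors than the *Pou4f2* cells. *Crx* had 230 UMIs in the members and 6 in the *Pou4f2* cells (ratio 32.1, 14.53 to 88.4), *Ptf1a* stood at 115 against 10.3 CPM (11.1, 7.46 to 17.3), and *Otx2* at 253 against 28.5 (8.88, 6.97 to 11.5). An *Otx2* UMI was still found in 41 of the 249 *Pou4f2* cells (16.5%, 12.1 to 21.7). *Neurog2* was 8.15-fold (6.99 to 9.56) and *Neurod1* 7.64-fold (6.24 to 9.43) higher. *Hes5* was 4.40-fold higher, whereas *Hey1* stood at 82.0 CPM against 114. Of 53 counted G2M genes 34 were higher in the members and 0 lower, and 16.9% of the *Pou4f2* cells were called G2M.

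**Figure D4:**
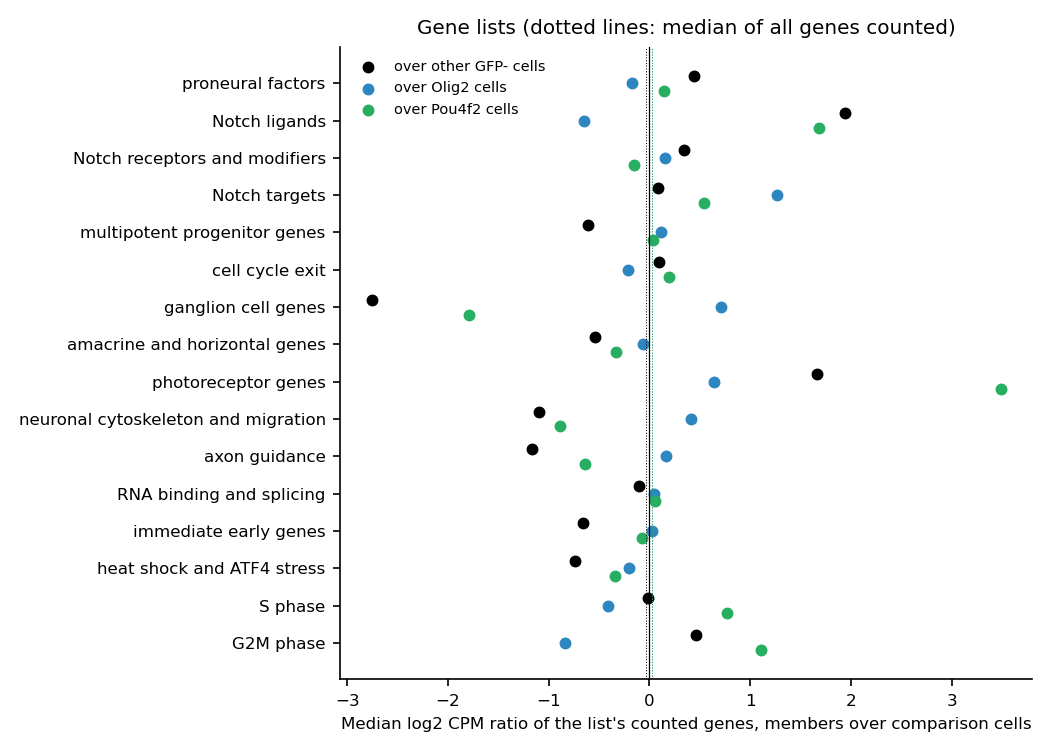
Median log2 ratio of CPM, members over the comparison cells, for each gene list with at least 3 counted genes in all 3 comparisons. Black points are the other GFP- cells, blue the *Olig2* cells and green the *Pou4f2* cells, and the dotted lines mark the median of all genes counted (-0.04, 0.02 and 0.02). Notch ligands lie at 1.94 over the other cells and at -0.65 over the *Olig2* cells. Notch targets lie at 1.27 over the *Olig2* cells, while ganglion cell genes lie at -2.76 over the other cells.

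The remaining lists were of genes outside the neurogenic programme, and their counts stand beside 2.98% of all genes higher and 12.6% lower. Neuronal cytoskeleton genes were 0 of 18 higher and 10 lower than in the other cells (median -1.10), axon guidance genes 3 and 8 of 16 (-1.16), with *Dcc*, the netrin receptor, among the higher at 22.9 against 10.9 CPM. Among RNA-binding genes, *Srrm4*, the splicing factor of neural microexons, was the 1 of 16 that was higher, at 155 against 49.8 CPM (3.11, 2.80 to 3.43), and 6 were lower. Of 11 counted heat shock and stress genes 1 (*Hsph1*) was higher and 5 lower, and of 11 immediate early genes 0 and 2, the latter a share near that of all genes. Markers of most other tissues were at or near 0 in the members: 4 of 6 microglial genes had no UMI in the members and the list summed to 1.33 against 12.9 CPM, the 5 pigment epithelium genes had none, and lens and mesenchyme genes summed to 3.32 and 0.332 CPM. The 4 endothelial genes were not, and summed to 40.2 CPM against 51.8 in the other cells. Of these, *Cdh5* had no UMI, *Kdr* had 68 and *Pecam1* had 24 in the members, with *Pecam1* at 7.97 against 1.46 CPM.

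The members were not uniform, and one division among them followed *Otx2*. An *Otx2* UMI was found in 150 members (43.6%, 38.3 to 49.0), and in 9.14% of the deeper ganglion class cells, with 37.3% and 6.15% after thinning. The 150 cells had a median of 7411.5 UMIs and the 194 without one 8080.5, so that those with *Otx2* were not the deeper ones. Of 6039 genes counted, 94 (1.56%) were at least 2-fold higher and 93 (1.54%) lower in the members with *Otx2*.

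Members with *Otx2* held more of the ligand and photoreceptor side of the programme. *Crx* stood at 176 CPM with *Otx2* and 10.5 without (ratio 16.7, 10.5 to 28.4), *Neurod1* at 689 against 71.2 (9.68, 8.03 to 11.7), *Neurog2* at 1090 against 239 (4.56, 4.09 to 5.09), *Dll4* at 107 against 9.39 (11.4, 6.87 to 20.2) and *Dll3* at 228 against 61.3 (3.72, 2.97 to 4.68). *Prdm1* (5.41) and *Onecut1* (6.24), factors of photoreceptor and horizontal cell precursors, were on the same side.

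Members without *Otx2* held more of the Notch target and *Dlx* side, as a difference of degree. Of the 150 members with *Otx2*, 72 (48.0%) had a *Hes5* UMI, against 90.2% of those without. A *Dlx1* or *Dlx2* UMI was also found in 72 (48.0%), against 77.3%. *Hes5* stood at 598 CPM with *Otx2* and 1347 without (0.444, 0.408 to 0.482), *Hes1* at 70.8 against 250 (0.284), *Hey1* at 22.5 against 121 (0.185) and *Lfng* at 37.5 against 171 (0.219). *Dlx1* (0.380), *Dlx2* (0.406), *Insm2* (0.402) and *Gal* (0.0725) were likewise lower with *Otx2*. *Gadd45a* did not follow this division, at 1774 against 1910 CPM, nor did *Ccnd1*. When every cell was thinned and split again, the ratios past 2-fold given here stayed past it, though that of *Dll4* went to 5.85, that of *Neurog2* to 3.00 and that of *Hes1* to 0.189. *Bhlhe22*, a further factor on the *Otx2* side, went from 2.84 to 1.75.

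*Ptf1a* marked a smaller set of members, most of them without *Otx2*. A *Ptf1a* UMI was found in 61 members (17.7%, 13.8 to 22.2) and in 1.15% of the progenitor class cells, whose median depth was 10250.5 UMIs, with 16.8% and 0.786% after thinning. Only 5 of these 61 cells also had *Otx2* (8.20%, 2.72 to 18.1), against 145 of the 283 without *Ptf1a* (51.2%, 45.3 to 57.2), and after thinning the shares were 9.26% and 42.9%. By contrast 58 of the 61 had a *Hes5* UMI (95.1%) against 66.8%. *Lfng* stood at 357 against 75.4 CPM with and without *Ptf1a* (4.73, 3.82 to 5.86), *Hey1* at 214 against 58.6 (3.65, 2.79 to 4.74), and *Cdkn1c* at 432 against 134 (3.22, 2.69 to 3.85, and 2.05 after thinning). *Neurod1* (0.0716), *Neurog2* (0.187) and *Ccnd1* (0.160) were on the other side. Of the 61 cells, 53 were called G1 (86.9%), against 34.6% of the remaining members, and the part of phase in these differences was not tested.

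**Figure D5:**
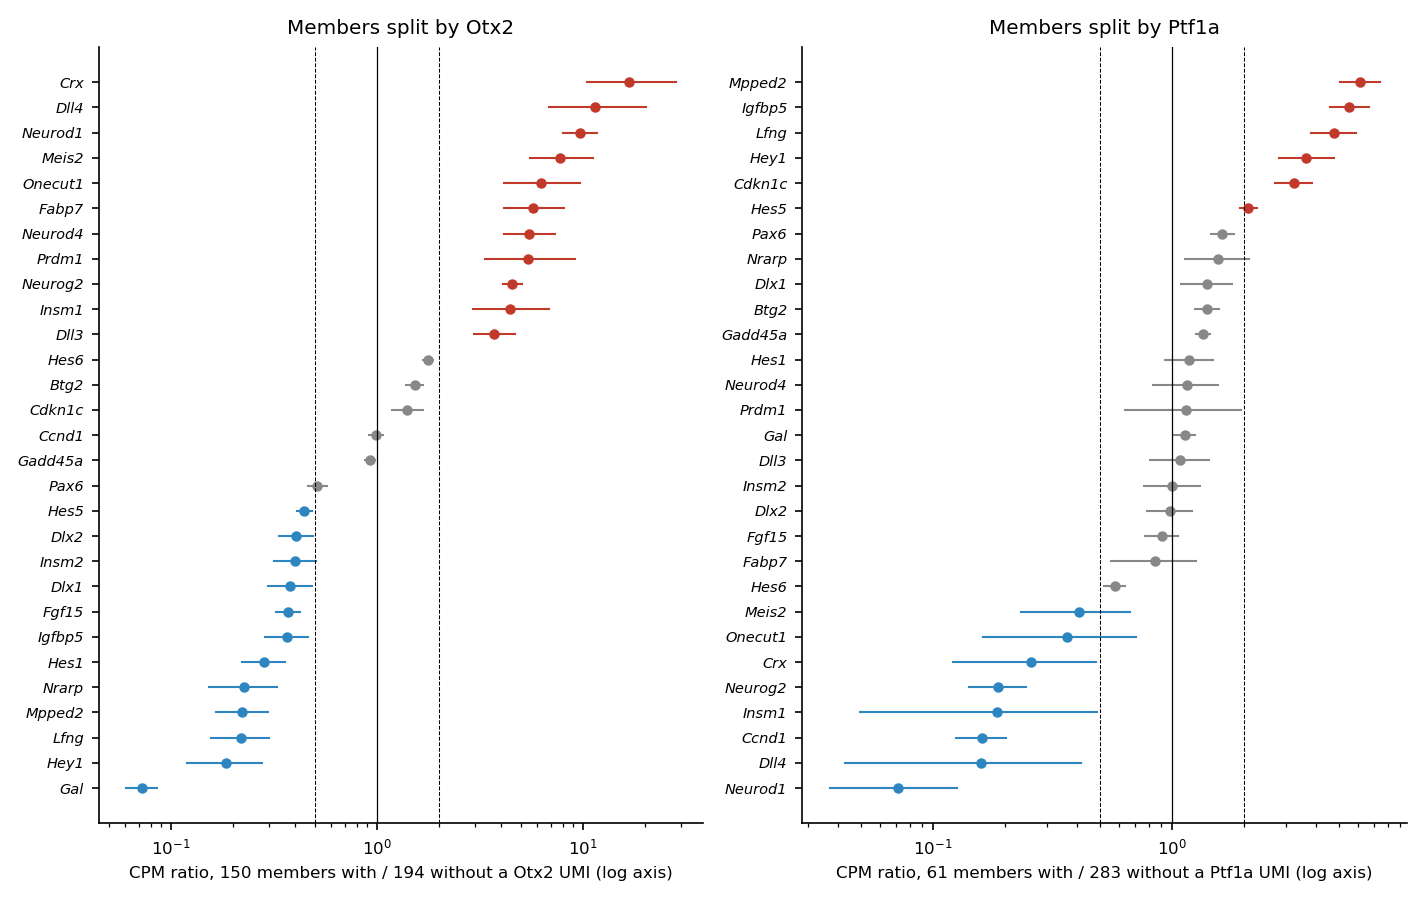
Ratio of CPM (points, log axis) with exact 95% intervals (lines) between members with and without an *Otx2* UMI (left, 150 and 194 cells) and with and without a *Ptf1a* UMI (right, 61 and 283 cells). Red is at least 2-fold higher, blue at least 2-fold lower, and dashed lines mark 2-fold. *Crx*, *Dll4* and *Neurod1* lie far right and *Gal* far left in the *Otx2* split, whereas *Lfng* and *Hey1* lie right and *Neurod1* and *Neurog2* left in the *Ptf1a* split.

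The members with *Isl1* UMIs (59 cells, 17.2%) had *Dlx* transcripts more often than those without. An *Isl1* UMI was found in 4.69% of progenitor class cells and 79.1% of *Pou4f2* cells, and after thinning in 13.0% of members and 2.36% of progenitor class cells. The part of free RNA in the *Isl1* share was not tested. Of the 59 cells, 52 had a *Dlx1* or *Dlx2* UMI (88.1%, 77.1 to 95.1) against 59.6% of those without *Isl1*, and *Insm2* stood at 307 against 107 CPM (2.87, 2.36 to 3.49), *Elavl4* at 84.9 against 29.2 (2.91, 1.98 to 4.25, and 4.68 after thinning) and *Igfbpl1* at 140 against 52.6 (2.67, 2.00 to 3.55). *Gal* stood at 2268 against 689 CPM, but its ratio of 3.29 went to 1.82 after thinning. At least 1 UMI of *Dlx1* or *Dlx2* was found in 222 members. *Dlx2* alone was found in 55.2% of members, 1.72% of progenitor class cells, 19.0% of ganglion class cells and 61.8% of *Pou4f2* cells, and after thinning in 50%, 0.786%, 10.4% and 52.9%. By UMIs found, which free RNA can add to, 72 members had both *Otx2* and *Dlx*, 75 had *Otx2* alone among *Otx2*, *Dlx*, *Ptf1a* and *Isl1*, 81 had *Dlx* alone, and 22 had none of them.

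Transcripts of some later fates were concentrated in the G1 members. *Crx* stood at 203 CPM in the 151 members called G1, 3.92 in the 56 called S and 3.57 in the 137 called G2M, and *Ptf1a* at 297, 9.80 and 9.28. *Neurod4* (257 against 9.28 CPM in G2M) and *Fabp7*, a fatty acid binding protein (182 against 9.99), had the same pattern. *Otx2* was spread more widely, at 452 CPM in G1 and 138 in G2M, and had a UMI in 45.7% of G1, 48.2% of S and 39.4% of G2M members. *Dlx2* and *Gal* were higher in G2M, at 290 against 135 CPM and 1417 against 459 in G1. *Gadd45a* changed little, at 1970 CPM in G1 and 1846 in G2M. Within the 151 G1 members, 70 had *Otx2* or *Crx* without *Ptf1a*, 44 had *Ptf1a* without *Otx2* or *Crx*, 9 had both, and 28 (18.5%, 12.7 to 25.7) had none of the 3.

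A *Neurog2* UMI, found in 165 members, went with higher ligand and cyclin levels. *Dll4* stood at 86.5 against 10.0 CPM with and without *Neurog2* (8.63, 5.04 to 15.9, and 15.8 after thinning), *Gadd45g* at 137 against 23.4 (5.84, 4.07 to 8.62), and *Hes6* at 2195 against 1040 (2.11, 1.99 to 2.24). *Ccnd1* stood at 1240 against 486 CPM (2.55, 2.34 to 2.79), while *Ptf1a* (0.175) and *Gal* (0.211) were lower with *Neurog2*. G1 calls made up 28.5% of the members with *Neurog2* and 58.1% of those without. *Hes5* was found in 70.9% of members with *Neurog2* and 72.6% of those without, and in 65.5% and 76.1% after thinning.

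Members also varied with the amount of *Atoh7*. They were divided into 3 nearly equal groups by *Atoh7* UMIs per 10000 UMIs, with 115, 114 and 115 cells. *Atoh7* was also used by the rule. In order of rising *Atoh7*, median depth was 8336, 7823 and 7225 UMIs, and 51.3%, 35.1% and 45.2% of cells were called G1. The part of depth and phase in the differences was not tested. From the lowest to the highest group, *Hes5* stood at 700, 993 and 1528 CPM (highest over lowest 2.18, 2.00 to 2.39), *Lfng* at 71.1, 107 and 186, and *Dlx2* at 154, 225 and 316. *Neurog2* went from 427 to 708 CPM (1.66, 1.47 to 1.87). *Sfrp2* stood at 262, 101 and 117 CPM and *Fgf15* at 658, 348 and 334, so that both progenitor genes were highest in the group with the least *Atoh7*. Of 4825 genes counted, 20 (0.415%) were at least 2-fold higher and 34 (0.705%) lower in the highest group than in the lowest.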

How the data were processed

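The authors pooled retinas, sorted GFP+ and GFP- cells and made 1 library per gate with 10X Chromium 3′ v2 chemistry. The deposited files hold UMI counts per gene and cell, not normalized, from Cell Ranger 2.1.1 per the labels, aligned to mm10 (GRCm38), for 28692 genes. No normalized file was used.

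Cells with a mitochondrial fraction under 0.25 were kept. The rule was applied to raw counts, and UMIs were summed per class and scaled to CPM with exact Poisson intervals. Ratios have exact conditional binomial intervals and shares Clopper-Pearson intervals, all at 95% and for counting error only. A sum of 0 was set to 3 counts in ratios that were counted. Genes with at least 50 UMIs over both classes were counted, and those of the rule were left out. Named genes are those of 22 lists, the 15 highest and 15 lowest against the other GFP- cells, and the 10 highest and 10 lowest against the Olig2 and Pou4f2 cells, with at least 50 CPM in either class. The members and lists were chosen with earlier results of these data known, and the co-detection within phases after the values were seen. Phases were scored in scanpy 1.11.5, which also ran Scrublet at an expected rate of 0.03 and left doublets in. Alternatives were other Atoh7 thresholds, cell filters, thinning, edgeR 4.0.16 TMM factors, means of per-cell values and other gene filters. Scripts used Python 3.11.15, numpy 2.4.6, scipy 1.17.1 and pandas 2.3.3, and the ratio step was tested on simulated data. Some of the genes that were counted are not reported here.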

Additional observations from a re-analysis of the deposited data

Results flagged for a closer look

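The GFP+ library, which no comparison above uses, also held cells that met the same rule. There were 175 of them among 3728 GFP+ cells (4.69%, 95% exact interval 4.04 to 5.42), with a median of 5517 UMIs. They drew attention because this library was used in no comparison and the share lay above the limit that a count of 0 would allow. In these GFP+ cells *Otx2* stood at 1400 CPM, *Crx* at 900 and *Gngt2* at 1078, against 253, 76.4 and 5.98 CPM in the *Atoh7* members of the GFP- library. *Hes5* stood at 13.0 CPM against 1048, *Neurog2* at 8.98 against 578, *Dlx2* at 2.99 against 227, and *Gadd45a* at 205 against 1856. Other genes that stood high in the GFP- members stood higher still in the GFP+ cells: *Neurod4* at 635 against 99.9 CPM, *Neurod1* at 1485 against 318, *Btg2* at 831 against 599, *Btbd17* at 494 against 323 and *Dll3* at 212 against 128. The rest of the GFP+ library stood near most of these levels. *Neurod4* stood there at 470 CPM, *Neurod1* at 1252, *Btg2* at 573, *Btbd17* at 389 and *Dll3* at 151. *Otx2* stood at 1471, *Crx* at 805 and *Gngt2* at 1885, and *Hes5*, *Neurog2* and *Dlx2* at 11.0, 10.5 and 4.60. *Gadd45a* stood further apart, at 91.8 CPM. Both parts of the GFP+ library thus held more cone transcript than the GFP- members. The genes that marked the GFP- members went both ways. The gates differ in depth and in sort, and neither was tested.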

How the results depend on the processing

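The share of GFP- cells that met the rule was 6.21% with at least 3 *Atoh7* UMIs, 11.7% with at least 1 and 9.26% with an upper limit of 3500 genes per cell. Without a filter on low genes, 2604 genes were higher in the members than in the other GFP- cells, 882 higher and 511 lower against the *Olig2* cells, and 1033 and 896 against the *Pou4f2* cells. With at least 200 UMIs these were 184 higher and 957 lower, 23 and 44, and 100 and 70. Against the *Pou4f2* cells 137 genes were lower after thinning, and against the *Olig2* cells 238 were higher with at least 1 *Atoh7* UMI. The list median of ganglion cell genes was -3.68 with at least 1 *Atoh7* UMI, -1.62 with the upper gene limit, and -2.07 and -1.94 after thinning with members chosen before or after it. The microglial median was -2.29 with at least 1 *Atoh7* UMI, and the red cell median was -4.49 and -4.48 after thinning and -4.26 for per-cell means. The S share was 24.6% with at least 1 *Atoh7* UMI. The haemoglobin genes reversed with the upper gene limit, to 1.90 for *Hba-a1*, 1.31 for *Hbb-bs* and 8.28 for *Hbb-bt*. The causes were not tested. Of 326 counts, shares and list medians under an alternative, 301 stayed near the reported value, including those without the barcodes found in both libraries, which were chosen as an alternative after seeing the data. Of 50 named genes past 2-fold against the other GFP- cells, 45 were past it under every alternative, and the 3 haemoglobin genes, *3632451O06Rik* (down to 1.60) and *Smpd3* (up to 0.566) were not. Of 540 gene ratios under an alternative, 398 stayed near the reported value, 139 moved and 3 reversed. No paired analysis was possible because each gate had 1 library and no test was made.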
